A study of Mus musculus with 19 samples.

Results

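The genes described here are 38 genes of mitosis and the spindle, chosen by name, as the rows of the expression table whose Ensembl identifier carries one of the listed symbols. All 38 were found among the 46078 genes of the table. The rule used no measured value, but the names were listed with earlier results of these data known. The genes were read in 19 mouse RNA-seq libraries in 5 groups. MG-WT held 3 mammary glands of wild-type mice. MG-N held 4 glands of MMTV-neu mice with wild-type p53 in fibroblasts, of which replicate 1 was MMTV-neu;Fsp-Cre and replicates 2 to 4 were MMTV-neu;p53wm-R172H/+ with no Cre. MG-NP held 4 glands of MMTV-neu;p53wm-R172H/+;Fsp-Cre mice, T-N held 4 tumors of MMTV-neu;Fsp-Cre mice, and T-NP held 4 tumors of MMTV-neu;p53wm-R172H/+;Fsp-Cre mice. The neu transgene, which encodes wild-type ERBB2, is driven in mammary epithelium by the MMTV promoter and was carried by every group but MG-WT. Fsp-Cre is active in fibroblasts and there turns the conditional allele, which otherwise encodes wild-type p53, into the p53 R172H mutant. The glands of MG-N and MG-NP came from tumor-bearing mice. The study asked what mutant p53 in fibroblasts changes in mammary tissue and in tumors, and the mitotic genes were read for that question and for the difference between tumor and gland.

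Mitosis is driven by Cdk1 bound to cyclins. Aurora and Polo-like kinases then build the bipolar spindle, the checkpoint kinases hold anaphase back until every kinetochore is attached, and the anaphase-promoting complex with Cdc20 releases the chromosomes for cytokinesis. Most of these genes are transcribed together late in the cell cycle, through promoter elements bound by the DREAM and MuvB complexes, B-Myb, FoxM1 and NF-Y, and in bulk tissue their summed RNA is widely read as a measure of the share of dividing cells. In a bulk sample, fewer dividing cells and less mitotic RNA per cell cannot be told apart.

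The promoters of the members were searched for the elements of this program. The shares found rest on the list of gene names and on no value of these libraries. Promoters of 300 bases from RefSeq (GRCm38.p6), from 250 before to 50 after the start, were read for 31 of the 38 genes. No promoter was read for Cdc25c, Ccna2, Aurkb, Kif20a, Tpx2, Incenp and Foxm1. The cell-cycle gene homology region, searched as TTTGAA or TTCGAA on both strands, was found in 24 of 31 (77.4%), against 18.2% of 17492 promoters of protein-coding genes. CCAAT on both strands, the letters bound by NF-Y, was found in 24 of 31 (77.4%), against 39.0%. Both stood in 21 of 31 (67.7%), against 7.4%, and at least 2 CCAAT in 16 of 31 (51.6%), against 13.5%. Neither pattern contains the other, and a match is a description of the sequence and not a site of binding. Of the 31, the 5 that rose most in T-N tumors and the 2 that rose least are shown, with 120 bases before the start. CCAAT, its reverse complement and the homology region are in capitals. Cdc25c, Ccna2 and Kif20a rose more than Aurka, and Incenp less than Kif23, but these had no promoter read and are not shown.
Cdk1, chr10:69352913-69353032, minus strand: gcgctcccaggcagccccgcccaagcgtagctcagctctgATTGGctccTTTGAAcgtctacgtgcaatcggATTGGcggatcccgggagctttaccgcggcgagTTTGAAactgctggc
Ccnb1, chr13:100786487-100786606, minus strand: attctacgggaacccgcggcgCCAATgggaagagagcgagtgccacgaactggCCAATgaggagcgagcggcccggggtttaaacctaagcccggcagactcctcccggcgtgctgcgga
Ube2c, chr2:164769809-164769928, plus strand: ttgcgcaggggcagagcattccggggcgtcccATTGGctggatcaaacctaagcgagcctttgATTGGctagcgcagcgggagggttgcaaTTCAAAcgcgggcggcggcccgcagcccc
Aurka, chr2:172370571-172370690, minus strand: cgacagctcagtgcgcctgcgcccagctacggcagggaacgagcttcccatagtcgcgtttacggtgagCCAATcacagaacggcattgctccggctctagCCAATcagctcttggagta
Ccnb2, chr9:70421555-70421674, minus strand: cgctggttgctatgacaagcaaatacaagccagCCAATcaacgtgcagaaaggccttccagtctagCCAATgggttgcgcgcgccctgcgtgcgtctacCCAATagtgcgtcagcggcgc
Espl1, chr15:102296173-102296292, plus strand: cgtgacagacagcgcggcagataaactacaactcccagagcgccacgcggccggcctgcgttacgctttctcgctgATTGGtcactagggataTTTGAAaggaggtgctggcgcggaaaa
Kif23, chr9:61946800-61946919, minus strand: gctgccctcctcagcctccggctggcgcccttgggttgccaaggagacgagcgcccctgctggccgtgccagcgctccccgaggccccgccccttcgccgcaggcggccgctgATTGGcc
In these windows Cdk1 had 2 CCAAT and 2 homology regions, Ube2c had 2 CCAAT and 1 homology region and Ccnb2 had 3 CCAAT. Espl1 and Kif23, which rose least of those 31, each had 1 CCAAT here, and Espl1 had a homology region as well. Aurka, Ccnb2 and Kif23 had a homology region elsewhere in the 300 bases, and Ccnb1 had none in them. The median log2 fold change in T-N against MG-N was 2.77 for the 21 genes with both motifs and 2.68 for the 10 without both, and in T-NP against MG-NP it was 2.68 and 2.80.

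The libraries of MG-WT held 54677315 to 62645459 reads on genes and the other 16 held 20899152 to 27262440. At that depth the 38 members together drew 2149 to 117818 reads per library, and in a single case (Cdc25c in MG-NP replicate 4) a member had at most 3 reads. Erbb2, which the transgene encodes, read 73426 to 155042 normalized counts in the 8 tumors and 1845 to 14718 in the 11 glands. Several glands stood apart by their markers. The skeletal muscle score (mean log2 of the normalized count plus 1 over 12 genes) was 14.36, 17.24, 9.25 and 16.54 in MG-NP replicates 1 to 4, against 4.49 to 10.13 in MG-N glands and 2.95 to 3.18 in MG-WT, and muscle genes took 8.51% of all reads in MG-NP replicate 2 and 4.69% in replicate 4. The white adipocyte score was 13.3 to 14.82 in the glands of MG-N and MG-NP and 5.43 to 6.59 in MG-WT. The luminal epithelium score was 12.9 to 13.17 in MG-WT, 9.39 to 11.14 in the other glands and 12.04 to 12.83 in the tumors. The main counts and medians that rest on MG-NP are therefore also given without replicates 2 and 4, and single values of T-NP against MG-NP include all 4 glands unless another set is named.

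In every tumor the mitotic genes took a larger share of the reads than in any gland. Their share was 0.176%, 0.457%, 0.154% and 0.325% in T-N replicates 1 to 4 and 0.215%, 0.236%, 0.176% and 0.131% in T-NP replicates 1 to 4. It was 0.0395%, 0.0308%, 0.0714% and 0.0349% in MG-N, 0.0741%, 0.0121%, 0.0773% and 0.00799% in MG-NP, and 0.0458%, 0.0265% and 0.0287% in MG-WT. For 35 of the 38 genes the lowest of the 8 tumors was above the highest of the 11 glands, which held for 10.9% of 16638 genes. The exceptions were Espl1, Incenp and Cenpa, for each of which the highest gland, MG-NP replicate 3, was above the lowest tumor, T-NP replicate 4.

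**Figure D1:**
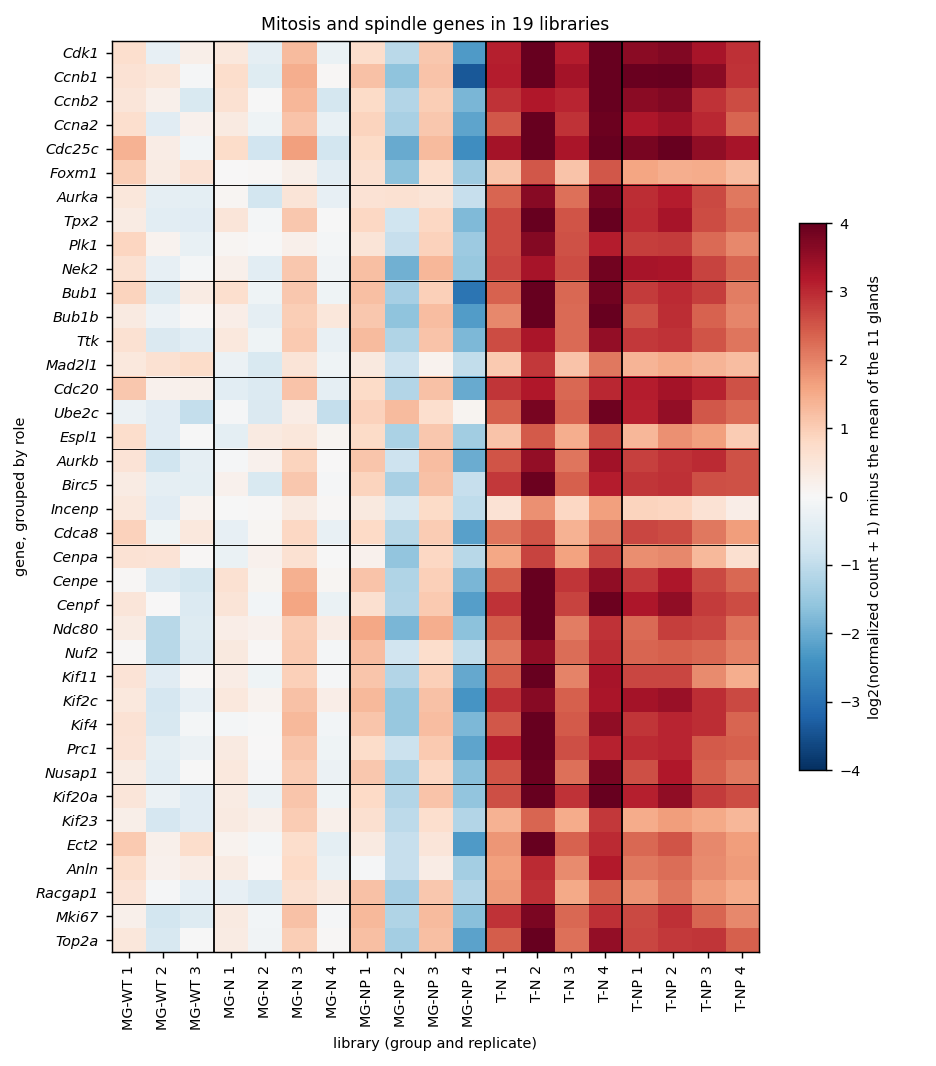
Heatmap of the 38 genes (rows, grouped by role) in the 19 libraries (columns), colored by log2(normalized count + 1) minus the gene's mean over the 11 glands. The 8 tumors on the right are red for nearly every gene, T-N replicates 2 and 4 most, while MG-NP replicates 2 and 4 are blue and MG-NP replicates 1 and 3 and MG-N replicate 3 are pale red.

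Against their glands, tumors of both genotypes had higher levels of the mitotic genes, with a median of 6.92-fold in T-N and 6.96-fold in T-NP. The T-N tumors carried Fsp-Cre without the conditional allele, while MG-N replicates 2 to 4 carried that allele without Cre. T-N against MG-N therefore differed in these as well as in tissue, and their part was not tested. In T-N against MG-N all 38 members rose (limma, Benjamini-Hochberg adjusted p under 0.05 and at least 2-fold; 12.8% of 17950 genes were called higher), with a median log2 fold change of 2.79 and a range of 1.10 to 3.78. In T-NP against MG-NP 37 of 38 rose (14.7% of 17880 genes), with a median of 2.80 and a range of 0.78 to 4.35. The median over all genes was -0.05 and -0.07. None of the 38 fell in T-N against MG-N or in T-NP against MG-NP, where 22.3% and 24.0% of all genes did. The groups did not overlap for all 38 genes in T-N against MG-N (22.7% of genes) and for 35 in T-NP against MG-NP (25.2%). Without MG-NP replicates 2 and 4, 31 genes were called in T-NP against MG-NP (13.3% of 18934 genes), the median was 1.63 and the range 0.07 to 2.68. Cdk1 then rose by 2.49 ± 0.24 (SE, adjusted p = 0.000331), Plk1 by 1.72 ± 0.30 (adjusted p = 0.00311) and Mki67 by 1.17 ± 0.26 (adjusted p = 0.00878), and the 7 genes short of the call were Foxm1, Espl1, Incenp, Cenpa, Ndc80, Kif23 and Racgap1. When the muscle score (9.25 to 17.24 in MG-NP and 3.04 to 8.52 in T-NP) entered the fit, 1 gene was called and the median was 1.10.

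Among the 6 genes of mitotic entry the median log2 fold change was 3.33 in T-N and 3.65 in T-NP, the highest of the 9 roles. Cdk1, the kinase that starts mitosis (ENSMUSG00000019942, chr10:69335146-69352938, minus strand), read 1462, 3893, 1469 and 3279.5 normalized counts in T-N and 2039, 2185, 1649.6 and 1261 in T-NP. The glands read 223, 129.9, 401 and 139 in MG-N, 272, 78.5, 351 and 33.6 in MG-NP and 264, 133 and 196 in MG-WT. Every tumor was above every gland, and the rise was 3.51 ± 0.45 (SE, adjusted p = 0.000451) on the log2 scale in T-N and 3.78 ± 0.68 (SE, adjusted p = 0.00178) in T-NP. Ccnb1, which encodes its partner cyclin B1 (ENSMUSG00000041431, chr13:100778650-100786570, minus strand), read 801, 2274, 907 and 2011 in T-N and 146, 64.4, 248 and 91.7 in MG-N, a rise of 3.47 ± 0.49 (SE, adjusted p = 0.000678). In T-NP it read 1400.3, 1709, 1112 and 678, against 202, 28.5, 197 and 7.7 in MG-NP, where replicate 4 stood far below the rest with 6 reads, and the rise of 4.35 ± 0.96 (SE, adjusted p = 0.00504) was the largest of the 38 there. Ccnb2, Ccna2 and Cdc25c, which encode cyclins B2 and A2 and the phosphatase that activates Cdk1, rose by 3.08, 3.19 and 3.78 in T-N and by 3.52, 3.35 and 4.32 in T-NP. Foxm1, a transcription factor of the mitotic program (ENSMUSG00000001517, chr6:128362967-128376146, plus strand), moved least of this role. It read 342, 891, 345 and 876 in T-N and 159, 162, 185 and 116 in MG-N (1.84 ± 0.37 (SE, adjusted p = 0.00374)), and 472, 432, 440.3 and 372 in T-NP and 245, 50, 248 and 58.1 in MG-NP (1.88 ± 0.55 (SE, adjusted p = 0.0174)).

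The 4 genes of centrosome and spindle kinases rose by 2.92 to 3.12 in T-N and by 2.52 to 3.14 in T-NP, the narrowest range of any role with over 2 genes in T-N. Plk1, the Polo-like kinase of spindle assembly (ENSMUSG00000030867, chr7:122159439-122169873, plus strand), read 470.4, 976, 444 and 683 in T-N and 80.2, 74.7, 88.3 and 72.1 in MG-N. Its MG-N glands lay within a narrow band, and its rise of 2.94 ± 0.27 (SE, adjusted p = 0.000122) had the smallest adjusted p of the 38. In T-NP it read 521, 533, 370.2 and 289.7 and in MG-NP 109, 40.0, 144 and 27.1 (2.67 ± 0.53 (SE, adjusted p = 0.00286)). Aurka, the centrosomal Aurora kinase, rose by 3.12 ± 0.44 and 2.52 ± 0.38 (SE), and Tpx2, its spindle activator, by 2.95 ± 0.43 and 3.03 ± 0.57. Nek2, a kinase that splits the centrosomes, rose by 2.92 ± 0.39 and 3.14 ± 0.76.

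The spindle checkpoint genes rose with medians of 2.71 in T-N and 2.79 in T-NP. Bub1, a checkpoint kinase at the kinetochore (ENSMUSG00000027379, chr2:127801122-127831865, minus strand), read 442, 1796, 422 and 1236 in T-N and 593, 678, 578 and 357 in T-NP. The MG-N glands read 135, 75.9, 180.3 and 75.2 and the MG-NP glands 196, 32.8, 165 and 10.3, and the rises were 2.87 ± 0.53 (SE, adjusted p = 0.00225) and 3.18 ± 0.85 (SE, adjusted p = 0.0119). Bub1b, which encodes the checkpoint protein BubR1, and Ttk, the kinase Mps1, rose by 2.75 and 2.67 in T-N and by 2.84 and 2.75 in T-NP. Mad2l1, which encodes the Cdc20 inhibitor Mad2, rose less, by 1.91 ± 0.42 and 1.67 ± 0.32 (SE). In MG-WT it read 290.4, 332 and 362, against 453, 1568, 486 and 949 in T-N and 559.5, 605, 564 and 509 in T-NP, so that these glands were below the tumors by a narrow margin.

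At anaphase onset, Cdc20, the activator of the anaphase-promoting complex (ENSMUSG00000006398, chr4:118432901-118437352, minus strand), read 1013, 1311, 697 and 1141 in T-N and 1236, 1418, 1199 and 828 in T-NP. It read 103, 96.5, 311 and 109 in MG-N, where replicate 3 was well above the rest, and 238, 61.4, 314 and 33.6 in MG-NP. The rises were 2.89 ± 0.39 (SE, adjusted p = 0.000555) and 3.35 ± 0.66 (SE, adjusted p = 0.00291). Espl1, which encodes separase, rose by 1.78 ± 0.36 and 1.66 ± 0.57 (SE), and its T-NP and MG-NP libraries overlapped. Ube2c, the ubiquitin-conjugating enzyme of the complex (ENSMUSG00000001403, chr2:164769898-164778822, plus strand), read 451, 1193, 439 and 1279 in T-N and 82.8, 56.3, 103 and 43.3 in MG-N, a rise of 3.44 ± 0.45 (SE, adjusted p = 0.000469). In T-NP it read 741, 971, 483 and 416 and in MG-NP 161, 207, 134 and 91.7, a rise of 2.11 ± 0.34 (SE, adjusted p = 0.00099). It was the member whose rises differed most between the genotypes. The rise in T-NP minus the rise in T-N was -1.33 ± 0.59 (SE), which did not pass the limma test of that difference (adjusted p = 0.597).

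The high Ube2c values of MG-NP replicates 2 and 4 went with a muscle gene that shares its exons. Tnnc2, the fast skeletal troponin C (chr2:164777161-164779967, minus strand), lies on the other strand and shares 592 of the 2600 exon bases of Ube2c. Tnnc2 read 10064, 81646, 318 and 49693 in MG-NP and at most 478 in the other glands. In MG-NP replicates 2 and 4 Ube2c lay 2.46 and 1.89 log2 units above the median member of its own library, while the other 37 genes, Aurka in replicate 2 (1.80) excepted, lay less than 1 unit above. Whether reads were counted by strand is not known, and the part of Tnnc2 in the Ube2c values was not tested.

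Of the chromosomal passenger complex, which corrects kinetochore attachments, Aurkb, Birc5 and Cdca8 rose in both genotypes and Incenp in T-N. Aurkb, its kinase (ENSMUSG00000020897, chr11:69045647-69051664, plus strand), read 599, 1222, 462 and 1088 in T-N and 101.9, 119.5, 197 and 107 in MG-N (2.61 ± 0.36 (SE, adjusted p = 0.000615)). It read 702, 783, 831 and 617 in T-NP and 226, 58.5, 249 and 25.8 in MG-NP (2.90 ± 0.67 (SE, adjusted p = 0.00607)). Birc5 (survivin) and Cdca8 (borealin) rose by 2.92 and 1.96 in T-N and by 2.77 and 2.64 in T-NP. Incenp, the scaffold of the complex (ENSMUSG00000024660, chr19:9872296-9899551, minus strand), changed least of the 38. It read 472, 1129.5, 562 and 987 in T-N and 317, 332, 405 and 328 in MG-N (1.10 ± 0.29 (SE, adjusted p = 0.0123)), with no overlap. In T-NP it read 592, 576, 472 and 387 and in MG-NP 416, 203, 540.5 and 156, with overlap, and the difference of 0.78 ± 0.39 (SE, adjusted p = 0.118) did not pass the test.

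At the kinetochore, Cenpf and Cenpe, 2 large outer proteins, rose by 3.04 ± 0.48 and 2.84 ± 0.51 (SE) in T-N and by 3.47 ± 0.67 and 3.0 ± 0.65 in T-NP. Cenpe, a kinetochore motor (ENSMUSG00000045328, chr3:135212537-135273611, plus strand), read 1274, 6484, 1721 and 2787 in T-N, so that replicate 2 held over 2 times the count of any other tumor. Ndc80 and Nuf2, subunits of the microtubule-binding complex, rose by 2.42 and 2.35 in T-N and by 2.58 and 2.21 in T-NP. Cenpa, the histone H3 variant of the centromere (ENSMUSG00000029177, chr5:30666777-30674830, plus strand), rose less. It read 689.6, 1547, 716 and 1503 in T-N and 194, 262, 359 and 234 in MG-N (2.01 ± 0.33 (SE, adjusted p = 0.00135)), and 854, 883, 574 and 367 in T-NP and 264, 78.5, 416 and 108 in MG-NP (1.84 ± 0.54 (SE, adjusted p = 0.0176)), where MG-NP replicate 3 overlapped the tumors.

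The 5 spindle motors and bundlers rose by 2.56 to 2.89 in T-N and by 2.46 to 3.46 in T-NP. Kif11, the motor that pushes the poles apart (ENSMUSG00000012443, chr19:37376403-37421859, plus strand), read 1683, 5613, 1242 and 3068 in T-N and 1987, 1992, 1170.3 and 865 in T-NP, against 382, 279, 610.4 and 304 in MG-N glands and 673, 139.9, 603 and 74.9 in MG-NP. The rises were 2.70 ± 0.46 (SE, adjusted p = 0.00164) and 2.46 ± 0.70 (SE, adjusted p = 0.0159). Kif2c, a microtubule depolymerase, rose by 2.56 ± 0.33 and 3.46 ± 0.80 (SE), Kif4, a chromosome motor, by 2.88 ± 0.46 and 3.03 ± 0.70, and Prc1, the bundler of the central spindle, by 2.89 ± 0.36 and 3.02 ± 0.63. Nusap1, which binds spindle microtubules, rose by 2.81 ± 0.44 and 2.83 ± 0.63.

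The 5 cytokinesis genes all rose in both genotypes, in T-N by 1.56 for Kif23 to 3.19 for Kif20a. Kif23, a subunit of centralspindlin (ENSMUSG00000032254, chr9:61915905-61946774, minus strand), read 511, 974.6, 548 and 1397 in T-N and 252, 223, 396 and 224 in MG-N (1.56 ± 0.35 (SE, adjusted p = 0.00613)). In T-NP it read 552, 618, 558 and 492 and in MG-NP 303, 92.8, 313 and 86.5 (1.73 ± 0.45 (SE, adjusted p = 0.0107)). Its partner Racgap1 rose by 2.1 and 1.84, Ect2 by 2.68 and 2.68, anillin (Anln) by 2.22 and 2.49, and the midzone motor Kif20a by 3.23 in T-NP.

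Mki67, the Ki-67 gene used in pathology to mark dividing cells (ENSMUSG00000031004, chr7:135689784-135716361, minus strand), had the highest level per kilobase of exon in T-N, T-NP and MG-N, followed by Top2a, the topoisomerase that untangles chromosomes, and by Ccnb2. Per kilobase, Mki67 read 1398 ± 624.6 (SD, n = 4) normalized counts in T-N and 945.7 ± 270.4 in T-NP, and Top2a read 1150 ± 722.5 and 758.1 ± 109.2. In whole normalized counts Mki67 read 12359, 22970.4, 8190.0 and 12752 in T-N and 10468, 12742, 8461 and 6389 in T-NP. The MG-N glands read 2169, 1539, 3756 and 1630.3 and the MG-NP glands 4152, 722, 4030.3 and 526, and the rises were 2.63 ± 0.36 (SE, adjusted p = 0.000642) and 2.54 ± 0.69 (SE, adjusted p = 0.0128). Top2a (ENSMUSG00000020914, chr11:98992943-99024189, minus strand) rose by 2.77 ± 0.44 and 2.95 ± 0.73 (SE).

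**Figure D2:**
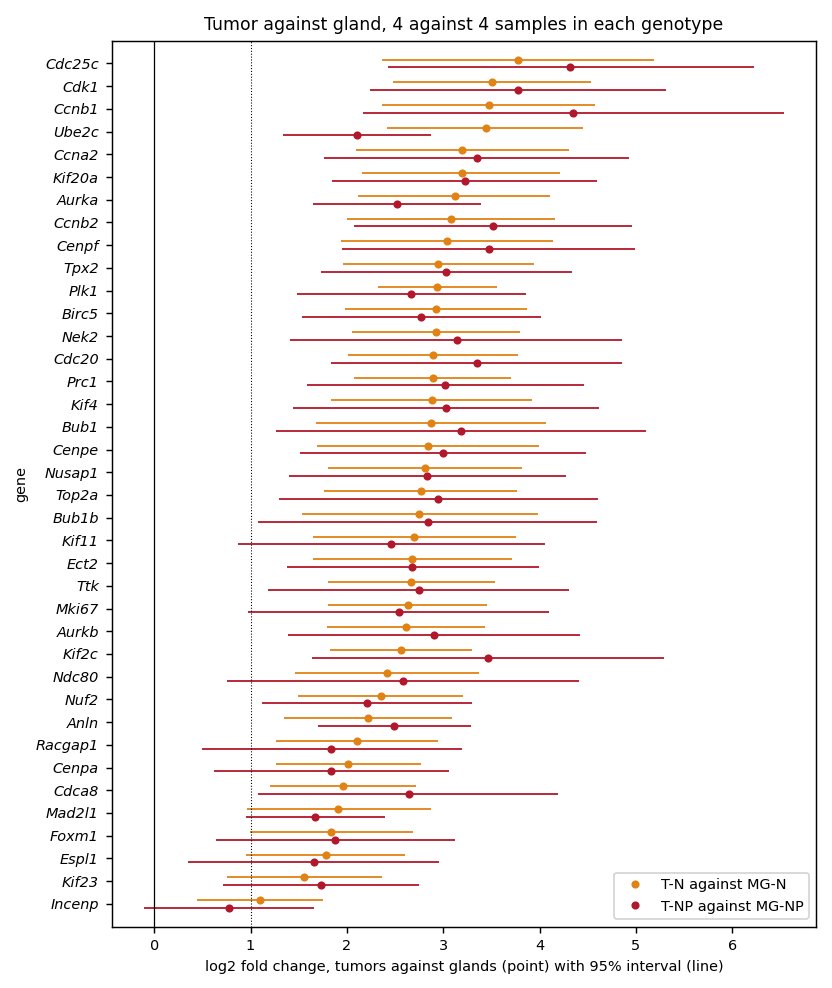
Log2 fold change (points) with its 95% interval (lines) for each of the 38 genes, in T-N against MG-N (orange) and T-NP against MG-NP (red), with a dotted line at 2-fold. Only the T-NP interval of Incenp, -0.11 to 1.66, reaches 0, and the T-NP intervals are the wider for most genes.

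How close the rises of the 2 genotypes lay depended on the MG-NP glands used. Across the 38 genes the log2 fold changes of T-N against MG-N and of T-NP against MG-NP, which share no library, had a Pearson correlation of 0.85 and a Spearman correlation of 0.75, given as a description since the genes share their libraries. For 32 of 38 genes they lay within 0.5 of each other. Without MG-NP replicates 2 and 4 the correlations were 0.90 and 0.88, but the rise was smaller in T-NP for all 38 genes and within 0.5 of that in T-N for 1. In the test of the difference 0 of 38 passed (limma; 0% of 19367 genes were called in either direction), 1 had an unadjusted p under 0.05 (Ube2c), and edgeR and DESeq2 also called 0. The median difference was 0.11 by limma, -0.47 by both count models and, by limma, -1.09 without MG-NP replicates 2 and 4, when 0 were called and 11 had an unadjusted p under 0.05. The share of all genes at that unadjusted cut is not given here.

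Measured against the MG-WT glands, which serve both genotypes, all 38 genes rose in T-N (17.4% of 18236 genes were called higher), with a median of 3.12, and 35 rose in T-NP (19.8% of 18233), with a median of 2.77. The 3 genes short of the call in T-NP were Foxm1 (log2 fold change 0.82 ± 0.19 (SE, adjusted p = 0.00434)), Mad2l1 (0.77 ± 0.14 (SE, adjusted p = 0.00109)) and Incenp (0.61 ± 0.24 (SE, adjusted p = 0.048)), each past the adjusted p, as were 32.7% of all genes upward, but under 2-fold. The luminal score of these glands was above that of every tumor, while luminal genes took 0.316% to 0.361% of their reads and 0.354% to 0.680% of the reads of the tumors, and 6 of 9 luminal genes had positive log2 fold changes in both comparisons. The part of epithelial content in the rise was not tested.

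Between the tumors of the 2 genotypes, 0 of 38 genes were called in either direction (limma; 0.0361% of 16638 genes were called higher in T-NP and 0.00601% lower). None had an unadjusted p under 0.05, and edgeR and DESeq2 called 0 as well. The median log2 difference of T-NP minus T-N was -0.42, negative for 35 genes and positive for Cdc20 (0.18), Cdca8 (0.24) and Kif2c (0.04). The farthest from 0 were Kif11 (-0.79, 95% interval -1.87 to 0.28) and Cenpa (-0.71, -1.56 to 0.14, adjusted p = 0.716). For 33 of 38 genes the interval reached a 2-fold lower level in T-NP, and for 0 of 38 a 2-fold higher one. With 4 tumors a group, a 2-fold lower level was thus not excluded for those 33 genes.

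**Figure D3:**
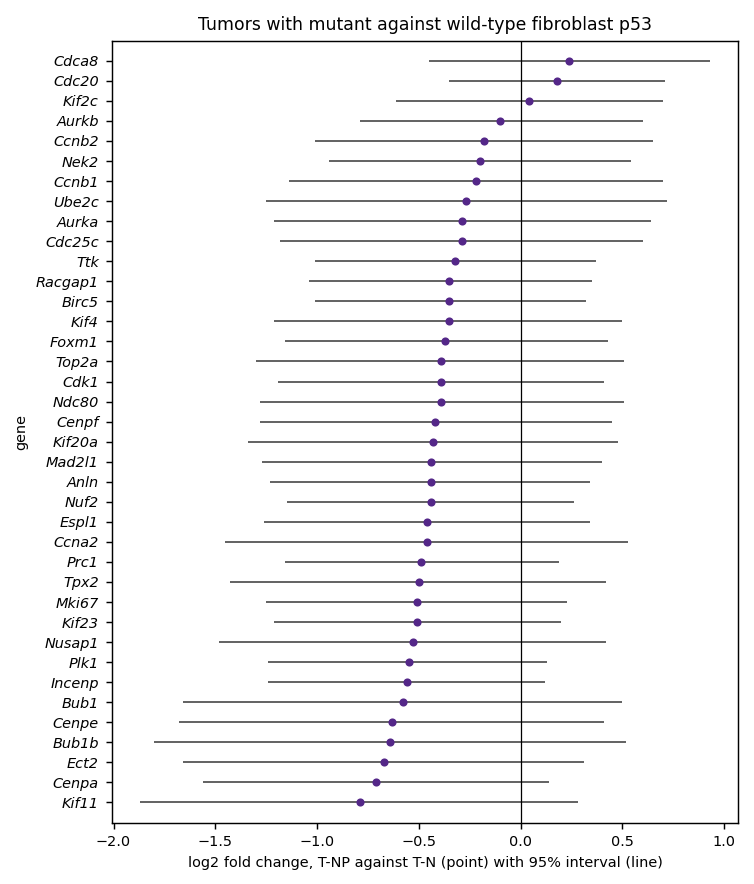
Log2 fold change of T-NP against T-N (points) with 95% interval (lines) for the 38 genes, 4 tumors in each group. All intervals include 0, and 35 of the 38 points lie below it.

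The spread lay within T-N. Relative to the mean of the 8 tumors, the median member stood at -0.39, 0.97, -0.47 and 0.71 log2 units in T-N replicates 1 to 4 and at -0.05, 0.14, -0.29 and -0.65 in T-NP replicates 1 to 4. T-N replicate 2 was the highest tumor for 28 of 38 genes and replicate 4 for 8, and both were above every T-NP tumor in 33 genes. For these orders the share of all genes was not counted. T-NP replicate 4 was the lowest for 25, T-N replicate 3 for 8 and T-N replicate 1 for 5. The SD over T-N was larger than that over T-NP for 37 of 38 genes (72.4% of all genes), with a median of 0.77 against 0.39 log2 units (0.42 and 0.27 over all genes). T-NP replicates 1 and 2, whose names share a number and which may be from 1 mouse, were the closest pair of tumors over the members, and with their mean taken as 1 tumor the SD was still larger over T-N for 37 of 38 genes (74.1% of all genes), at a median of 0.77 against 0.37. Leaving out 1 tumor at a time moved the median difference between genotypes from -0.62 to -0.14, still with 0 genes called.

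**Figure D4:**
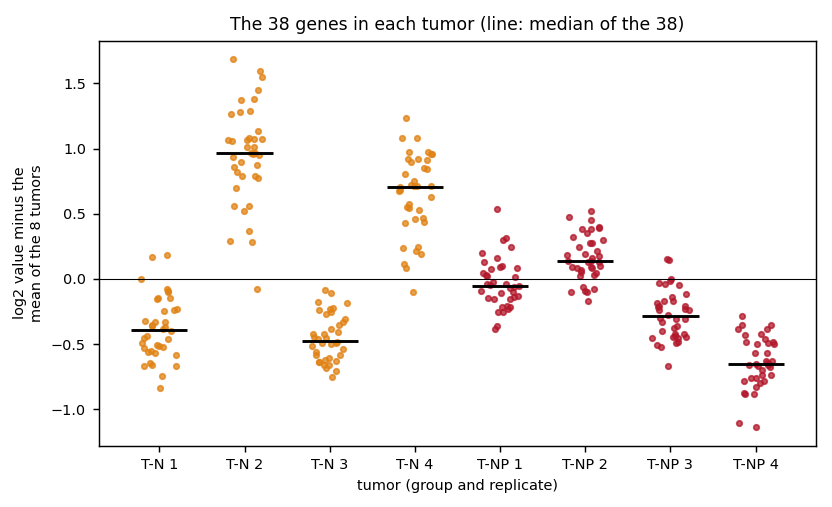
Each of the 38 genes (points) in each of the 8 tumors, as log2(normalized count + 1) minus the gene's mean over the 8 tumors; lines mark the median of the 38. T-N replicates 2 and 4 have medians of 0.97 and 0.71, and the other 6 tumors lie between -0.65 and 0.14.

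The order of the tumors was shared by nearly all the genes. Ccnb2 in T-N replicate 2 was the single value over 1 log2 unit from the median member of its tumor: it read 935, 1.04 units below what the other genes of that library gave, so that T-N replicate 4 (2087) was highest for it. The scores of other lists are given beside the order of the tumors by their median member. The DNA replication score was 9.32, 10.56, 9.26 and 10.19 in T-N and 9.43, 9.7, 9.97 and 9.52 in T-NP, highest in T-N replicates 2 and 4 as the mitotic genes were, but in T-NP highest in replicate 3, which was the third of 4 there for the mitotic genes. The fibroblast score was 9.76, 8.97, 11.71 and 9.32 in T-N and 9.19, 9.61, 10.07 and 9.73 in T-NP, lowest in T-N replicate 2, while the luminal score was 12.04, 12.63, 12.23 and 12.24 and 12.36, 12.67, 12.83 and 12.33. The part of tissue makeup in the order of the tumors was not tested.

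Within the glands the genes did not follow the groups. In MG-N against MG-WT 0 of 38 were called (limma; 19.1% of 19017 genes were called higher and 17.9% lower), 6 had an unadjusted p under 0.05, and edgeR and DESeq2 each called 1 higher. Cenpe (0.95 ± 0.35 (SE, adjusted p = 0.043)) and Kif23 (0.75 ± 0.28 (SE, adjusted p = 0.0498)) were higher and Foxm1 (-0.65 ± 0.23 (SE, adjusted p = 0.036)) and Mad2l1 (-0.71 ± 0.26 (SE, adjusted p = 0.0425)) lower in MG-N, past the adjusted p but under 2-fold (30.0% of all genes were higher and 29.2% lower by adjusted p alone). Cenpe read 244, 164 and 145 in MG-WT and 362, 255, 635 and 252 in MG-N, and every MG-N gland was above every MG-WT gland. Foxm1 separated the other way, at 310, 196 and 235 in MG-WT and 159, 162, 185 and 116 in MG-N. The share of all genes without overlap in this comparison is not given here. The median over the 38 was 0.22, and -0.03 without MG-N replicate 3. The part of tissue makeup and depth, which also differed between MG-N and MG-WT, was not tested.

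In MG-NP against MG-N 0 of 38 were called (limma; 0% of 18563 genes in either direction), 1 had an unadjusted p under 0.05 (Ube2c, 1.06 ± 0.35 (SE, adjusted p = 0.357)), and edgeR and DESeq2 called 0. The median was -0.55 by limma and -0.08 by both count models, in which 12 genes had the other sign. In MG-NP against MG-WT 1 of 38 was called higher (16.4% of 19065 genes) and 0 lower (16.2%), with a median of -0.28, or 0.18 by both count models. It was Ube2c, which read 71.2, 61 and 42.9 in MG-WT (1.30 ± 0.34 (SE, adjusted p = 0.0165)). MG-NP replicates 1, 2 and 4 entered this value with the high Tnnc2 counts given above. Without replicates 2 and 4, but still with replicate 1 and its 10064 counts of Tnnc2, Ube2c was 1.35 ± 0.30 (SE, adjusted p = 0.0103).

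The 4 MG-NP glands fell into 2 pairs. Replicates 1 and 3 were above replicates 2 and 4 for 36 of 38 genes, and above every MG-WT gland for 28, while replicates 2 and 4 were below every MG-N gland for 36. The pairs were named after the values were seen, and the share of all genes in this order was not counted. For 37 of 38 genes the SD over MG-NP was larger than over MG-N (67.0% of all genes), with a median of 1.48 against 0.55 log2 units. Mki67 shows the pattern with 4152, 722, 4030.3 and 526 in MG-NP against 1915, 1008 and 1179 in MG-WT. Ndc80 read 187, 17.1, 173 and 19.4 in MG-NP and 78.5, 28.8 and 43.9 in MG-WT.

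Without MG-NP replicates 2 and 4, a choice made after the data were seen, 16 of 38 genes were called higher in MG-NP than in MG-WT (18.7% of 19272 genes), with a median of 0.94. They included Mki67 (1.64 ± 0.27, SE, adjusted p = 0.00293), Ndc80 (1.93 ± 0.43, adjusted p = 0.00957), Cenpe (1.44 ± 0.26, adjusted p = 0.00448) and Bub1b (1.08 ± 0.21, adjusted p = 0.00625), from 2 glands against 3. Against MG-N the median without them was 0.72, with 0 called and 12 at an unadjusted p under 0.05. For the latter count the share of all genes is not given here, so it is not read as a difference of the members.

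Lymphocyte and muscle scores split by the same pairs, with muscle scores high where lymphocyte scores were low. The B cell score over 8 genes was 9.76, 4.85, 10.77 and 7.75 in MG-NP and 9.28, 3.85, 7.62 and 9.85 in MG-N, and the T cell score over 8 genes was 9.48, 5.83, 9.68 and 6.12 and 7.33, 7.09, 7.42 and 9.27. In MG-WT they were 7.40 to 8.29 and 6.39 to 7.08. The macrophage score was 11.5, 10.63, 11.62 and 10.8 in MG-NP and 11.53, 12.6, 11.26 and 11.91 in MG-N. In MG-NP the germinal centre B cell score (8.14, 5.7, 7.31 and 6.6) and the basal epithelium score (10.61, 10.42, 10.77 and 9.52) also split by the pairs. The luminal, fibroblast, white adipocyte and endothelium scores did not. MG-NP replicates 1 and 3 had high mitotic and high lymphocyte scores, and replicates 2 and 4 had low mitotic scores and the highest muscle scores. Replicate 1, with a mitotic score of 8.22, also had a muscle score of 14.36, against 9.25 in replicate 3. The mitotic score of MG-N replicates 1 to 4 was 7.56, 7.19, 8.3 and 7.21. Replicate 3 was highest there with a B cell score of 7.62, while replicate 4, with the highest B cell and T cell scores of MG-N, was second lowest. The part of lymphocytes, of muscle and of the other cell types in the gland values was not tested.

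**Figure D5:**
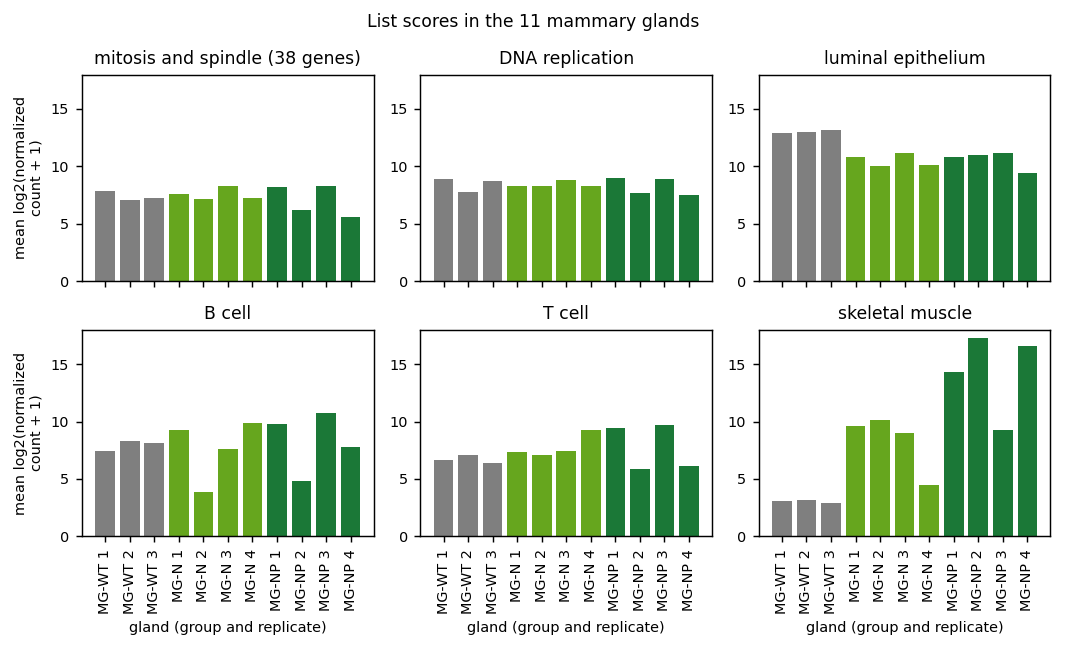
Score (bars, mean log2(normalized count + 1) over the genes of a list) of 6 lists in each of the 11 glands: the 38 mitosis and spindle genes, DNA replication, luminal epithelium, B cells, T cells and skeletal muscle. Mitotic scores of MG-NP replicates 2 and 4, at 6.23 and 5.62, are the lowest, beside muscle scores of 17.24 and 16.54.

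Lists of related genes, chosen with earlier results of these data known, were read in the same comparisons, in which 12.8% of all genes were called higher in T-N and 14.7% in T-NP. Of 65 other mitotic genes 53 rose in T-N against MG-N and 50 in T-NP against MG-NP (41 without MG-NP replicates 2 and 4, with a median of 1.23), each with a median of 2.27, and 0 fell. The largest rises were Spag5, a spindle protein (4.78 ± 0.61, SE, adjusted p = 0.000435 in T-N and 5.10 ± 0.54, adjusted p = 0.000121 in T-NP), and Pbk, a mitotic kinase (3.69 ± 0.54 and 4.35 ± 0.68). Of 25 DNA replication genes 21 and 16 rose (7 in T-NP without those glands), with medians of 1.28 and 1.24, Rrm2, the ribonucleotide reductase subunit, most (2.95 ± 0.51 and 3.16 ± 0.62). For complexes that are used in mitosis but not in mitosis alone the medians were lower, and the shares called were near or below those of all genes. Of 16 subunits and partners of the anaphase-promoting complex 2 rose in T-N (Ube2s and Fzr1) and 1 in T-NP (Ube2s), with medians of 0.26 and 0.29. Of 9 cohesin genes 0 were called in either comparison by limma (3 and 6 at an unadjusted p under 0.05, with the share of all genes at that cut not given here), with medians of 0.16 and 0.31. Of 12 subunits of DREAM and MuvB 2 rose in T-N (Mybl2, which encodes B-Myb, and Lin9) and 1 in T-NP (Lin9), with medians of 0.34 and 0.28.

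In the glands few of the 65 other mitotic genes were called against MG-WT. In MG-N 1 rose (Hmmr, 1.45) and 4 fell, where 19.1% and 17.9% of all genes did, and in MG-NP 1 rose (Pttg1, 1.26) and 2 fell, where 16.4% and 16.2% did. Wee1, the kinase that holds Cdk1 inactive, fell most, by 2.13 ± 0.28 (SE, adjusted p = 0.00034) on the log2 scale in MG-N and by 2.17 ± 0.33 (adjusted p = 0.00201) in MG-NP, 2 comparisons that share the MG-WT glands. Without MG-NP replicates 2 and 4 it fell by 1.81 ± 0.19 (SE, adjusted p = 6e-04). Pkmyt1, which encodes another kinase that holds Cdk1 inactive, fell by 1.14 ± 0.30 (SE, adjusted p = 0.0113) in MG-N. The MG-WT glands also differed in adipocyte score, luminal score and depth, as given above, and the part of these in the falls was not tested.

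Further members share exon bases with a gene on the other strand: Kif20a with Cdc23 (1271 bases), Prc1 with Rccd1 (911), Kif4 with Pdzd11 (832), Cdc25c with Gm3550 (623), Ccna2 with Exosc9 (510), Nek2 with Gm38037 (298), Cdca8 with 9930104L06Rik (232), Cdc20 with Elovl1 (53) and Nusap1 with Oip5. Pdzd11 read 250 to 733 normalized counts and Cdc23 1028 to 1930 over the 19 libraries, and in the glands Exosc9 read 292 to 688 against 51.7 to 500.5 for Ccna2, and 9930104L06Rik 325 to 487, above Cdca8 in each gland. The gland values of all the members with such a partner are uncertain to the extent of the shared bases if strand was not used. The pseudogene copies Ccnb1-ps and Gm12856 of Ccnb1 and Gm42430 of Mad2l1 read at most 9.5 normalized counts in any library. Further copies, Gm8416 of Ccnb1 (97.4% identity) and Gm8956 of Ube2c (96.3%), had no value to read.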

How the data were processed

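The signal deposited by the authors was one table of normalized counts, that is, gene read counts divided by a DESeq2 size factor for each library. Reads had been aligned to GRCm38 with TopHat2 (version 2.1.1, per the submitters' processing notes) and Bowtie2. The counting tool, its use of strand and the annotation are not given in the sources used here, and the sources differ on the library kit (total RNA or mRNA). All 19 columns were used. Whole reads were recovered by dividing each library by its smallest step, with 100% of values whole at a tolerance of 0.05 reads. That check alone could not tell T-N replicate 3 from unscaled counts, its step being close to 1. Identifiers were matched to GENCODE release 21 for mouse (98.16% matched).

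Groups came from the sample records. Log2(normalized count + 1) was fitted per comparison with limma (version 3.58.1, eBayes with a trend) on genes with at least 10 normalized counts in as many samples as the smaller group. Benjamini-Hochberg adjustment ran over all genes tested, and a call needed an adjusted p under 0.05 and at least 2-fold. All 38 genes passed this filter in every comparison. Tested on simulated data for T-N against MG-N (14513 genes), the fit recovered 10% of genes changed 2-fold and 100% of genes changed 4-fold. Recovery there was counted at a lower fold threshold than that of the call. The simulation gave every gene the same spread setting, so these shares do not give the recovery of the members under the call. Alternatives were edgeR (version 4.0.16) and DESeq2 (version 1.42.0) on recovered reads, TMM scaling, other pseudocounts and filters, a replicate block, samples left out, T-NP replicates 1 and 2 averaged (their names share a number), and a muscle score covariate. The records do not say that replicates are separate animals in every case, and p-values measure the spread between these samples. Every one of the 38 genes is named. Of the other lists, at most the pair of genes that rose most and the pair that fell most are named in a comparison. The members and the gene lists were chosen with earlier results of these data known.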

Additional observations from a re-analysis of the deposited data

Results flagged for a closer look

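In each group of 4, the highest or lowest library was set against the others by Dixon's test on the log2 scale, over 152 combinations of gene and group. Chance flags about 1 in 20, or 7.6 of 152, and 4 were found, all in glands. Kif4 in MG-N had a ratio of gap to range of 0.934, through replicate 3 at 311 normalized counts against 117 to 125. Cdc20 in MG-N had a ratio of 0.895, through replicate 3 at 311 against 96.5 to 109. Ndc80 in MG-N had a ratio of 0.862, through replicate 3 at 128 against 71.3 to 77.2. Aurka in MG-NP had a ratio of 0.929, through replicate 4 at 59.4 against 161 to 174.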

How the results depend on the processing

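Of 204 values of the counts of called genes under other settings, single samples left out aside, 196 stayed within 1.5 times the reported count and 8 did not. In T-NP against MG-NP the count of 37 became 1 with the muscle score as a covariate (median 1.10), and Cenpa turned to -0.05 (adjusted p = 0.95). The muscle score was 9.25 to 17.24 in MG-NP and 3.04 to 8.52 in T-NP, so the covariate also takes up part of the difference between groups. In MG-N against MG-WT the count of 0 higher became 1 with edgeR, 1 with DESeq2, 2 with no fold threshold and 2 with a replicate block, and the count of 0 lower became 2 with no fold threshold. In MG-NP against MG-WT the count of 1 higher became 0 with the muscle covariate and 16 without MG-NP replicates 2 and 4, the latter chosen after the data were seen. With 1 sample left out at a time, the counts higher were 37 to 38 in T-N against MG-N, 33 to 38 in T-NP against MG-NP, 35 to 38 in T-N against MG-WT, 34 to 35 in T-NP against MG-WT, 0 to 4 in MG-N against MG-WT (4 without MG-WT replicate 1, 1 without MG-N replicate 2 and 2 without MG-N replicate 4) and 0 to 1 in MG-NP against MG-WT (0 without MG-WT replicate 3). The count lower in MG-NP against MG-WT was 0 to 1 (1 without MG-NP replicate 1 or 3), and the other counts stayed at 0. Of 2756 single-gene values of called genes under other settings, 2665 kept direction and call, 90 kept direction alone and 1 reversed. Replicate numbers did not pair the samples: over 28 same-numbered pairs the correlation of deviations was -0.25 to 0.33 and exceeded 0.1 in 4. The replicate block gave 38 higher in T-N against MG-N and 37 in T-NP against MG-NP. TMM scaling moved the median of all genes by -0.05 to 0.10. In the simulation of T-N against MG-N, 10% of genes changed 2-fold were recovered at a lower fold threshold than that of the call, and tumors against tumors were not simulated. Depth was low for some members in MG-NP replicate 4, where Cdc25c had 3 reads, Ccnb1 6, Bub1 8 and Kif2c 10.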
